A study of Homo sapiens with 6 samples.

Results

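The brakes and accelerators of the G1 phase of the cell cycle were followed through a miR-CLIP experiment in fibroblasts expressing oncogenic RAS. The set comprised 10 genes, chosen by symbol: the CIP/KIP inhibitors CDKN1A, CDKN1B and CDKN1C, the INK4 inhibitors CDKN2A, CDKN2B, CDKN2C and CDKN2D, and the D-type cyclins CCND1, CCND2 and CCND3. All 10 were among the 18234 genes of the deposited table, and all 10 passed the filter on low values. They were picked for their known roles in arrest and not for their values here. The table held 3 miR-CLIP libraries and 3 Input libraries, named A, B and C in each group, and values are listed in that order throughout. Every library came from IMR90, a normal human lung fibroblast line, infected with a retrovirus encoding RASV12, selected with puromycin, and later transfected with a miR-146a mimic bearing psoralen and biotin. Only the miR-CLIP libraries carry an AGO2 antibody in their labels. There AGO2, the protein that holds microRNAs on their targets, was immunoprecipitated, and RNA joined to the mimic was then captured on streptavidin. The sources used here do not say how Input RNA was taken. All 6 libraries share RASV12 and the mimic, so the values compare RNA recovered with the mimic against Input RNA, and not arrested cells against growing ones.

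Cyclin-dependent kinases drive a cell from G1 into DNA replication. D-type cyclins switch on CDK4 and CDK6, which phosphorylate the retinoblastoma protein and so free E2F transcription factors. INK4 inhibitors bind CDK4 and CDK6 and keep D-type cyclins off them, whereas CIP/KIP inhibitors bind cyclin-CDK complexes and stop mainly those containing CDK2. In oncogene-induced senescence, fibroblasts that receive active RAS leave the cycle through the p16 product of CDKN2A and through CDKN1A, also known as p21. miR-146a accumulates in such cells and is best known for lowering IRAK1 and TRAF6 of interleukin-1 signalling.

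MicroRNAs find most of their targets through a seed, bases 2 to 8 counted from the 5′ end, so the seed of the mimic is the sequence against which the 10 transcripts can be read. It is shown in capitals in the mature human miR-146a-5p (RefSeq, GRCh38.p14, chr5:160485372-160485393, plus strand), above the only seed match in the longest annotated 3′ UTR of any of the 10 genes and, for comparison, the paired sites of the known target IRAK1. Capitals in the gene sequences mark the letters that pair with the seed, both fragments are 30 bases of GENCODE release 29 transcripts, and each is written 5′ to 3′.
hsa-miR-146a-5p: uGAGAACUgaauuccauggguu
CDKN1A: ttaaagcctcctcatcccgtGTTCTCcttt
IRAK1: caaAGTTCTCatggtcagaAGTTCTCatgg
The CDKN1A fragment lies in the 3′ UTR at chr6:36686050-36686079 (GRCh38, plus strand) and holds a 6mer, GTTCTC, which pairs with bases 2 to 7 only. The IRAK1 fragment lies in the 3′ UTR at chrX:154011793-154011822 (GRCh38, minus strand) and holds 2 full matches of 7 letters.

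None of the 10 genes held a full seed match. The 7mer-m8 site, AGTTCTC, and the 7mer-A1 site, GTTCTCA, were searched on the transcript strand of all 47 annotated protein-coding transcripts of the 10 genes, and 0 of 10 genes had either in any region. The 6mer, which is contained in both, was found in 2 of 10 genes. It occurred in 4 of 5 coding transcripts of CDKN1A and in 2 of 10 coding transcripts of CDKN2A, though not in the longest 3′ UTR of CDKN2A. Among 6294 tested protein-coding genes with a 3′ UTR, 12.2% held the 7mer-m8 site in the longest one, 14.6% the 7mer-A1 site and 33.1% the 6mer. The longest 3′ UTRs ran from 363 nucleotides in CDKN2C to 3192 in CCND1 and 5341 in CCND2. These letters describe the transcripts and do not show whether the mimic bound them.

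Values are normalised read counts, that is, the reads of a gene divided by 1 size factor per library, and 1 read was worth between 0.612 and 1.25. The rows of the table held 6847837 to 9378463 reads in miR-CLIP and 9295325 to 12771968 in Input. Genes with at least 1 read numbered 8940, 11137 and 7329 in the miR-CLIP libraries and 11930, 10905 and 10204 in the Input libraries. Libraries A and C of miR-CLIP thus had fewer such genes than B or any Input library. The libraries did not divide cleanly by the groups of the labels. Across 8506 tested genes, the Pearson r of miR-CLIP B was 0.973 to 0.982 with the Input libraries but 0.911 to 0.929 with miR-CLIP A and C. miR-CLIP A and C had 0.925 to 0.952 with Input and 0.942 with each other. Library A was thus closer to Input A (0.952) and Input B (0.946) than to miR-CLIP C. Library C was closer to miR-CLIP A than to any Input library, where it had at most 0.930. These correlations run across genes, which are not independent replicates. Each fitted comparison of the 10 genes is therefore given with all 6 libraries and without miR-CLIP B, a fit that drops the miR-CLIP library nearest to Input, singled out after its values were seen, and rests on 2 miR-CLIP libraries against 3 Input libraries. Of the 12 fibroblast markers listed, 7 were in the table and had reads in every library, including COL1A1, COL3A1 and FN1. Their summed value was 107348 to 133833 in miR-CLIP and 99437 to 155580 in Input. The blood cell markers, 4 of 5 in the table and 1 of them with reads in every library, summed to 9.29 to 41.3 in miR-CLIP and 7.81 to 25.1 in Input, and the epithelial markers to 536 to 2254 in miR-CLIP and 1016 to 1362 in Input. Of 5 endothelial markers, 4 were in the table, all with reads in every library. They summed to 124 to 237 in miR-CLIP and 157 to 246 in Input. The labels do not say whether libraries came from separate cultures, so the p-values measure spread that may be technical.

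With all 6 libraries, none of the 10 genes passed the test between miR-CLIP and Input. That test was limma-trend on log2(value + 1), adjusted by Benjamini-Hochberg over 8506 genes with a threshold of 0.05, and it called 0 of 10 genes higher and 0 lower, beside 0% of all tested genes. At an unadjusted p under 0.05, 1 of the 10 (CDKN2D) was higher and 0 lower, beside 2.4% of all genes higher (204) and 4.04% lower (344). By edgeR on the recovered reads 0 genes passed, with 358 higher and 202 lower at an unadjusted p under 0.05. Of the 10 log2 differences, 8 were above 0, with a median of 0.10 against -0.13 over all tested genes. Those of CCND1, CDKN1C and CCND2 were only 0.02, 0.07 and 0.08, and without miR-CLIP B 6 of the 10 were above 0. Without miR-CLIP B, 3 of the 10 were called higher and 1 lower, where the same fit called 12.6% of all genes higher and 16.1% lower. The 3 were the inhibitors CDKN1A, CDKN1B and CDKN2B, and the 1 was the cyclin CCND3. The spread between miR-CLIP libraries exceeded that between Input libraries for all 10 genes, as it did in the median of all tested genes, where the SD of log2 values was 0.77 in miR-CLIP and 0.27 in Input.

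**Figure D1:**
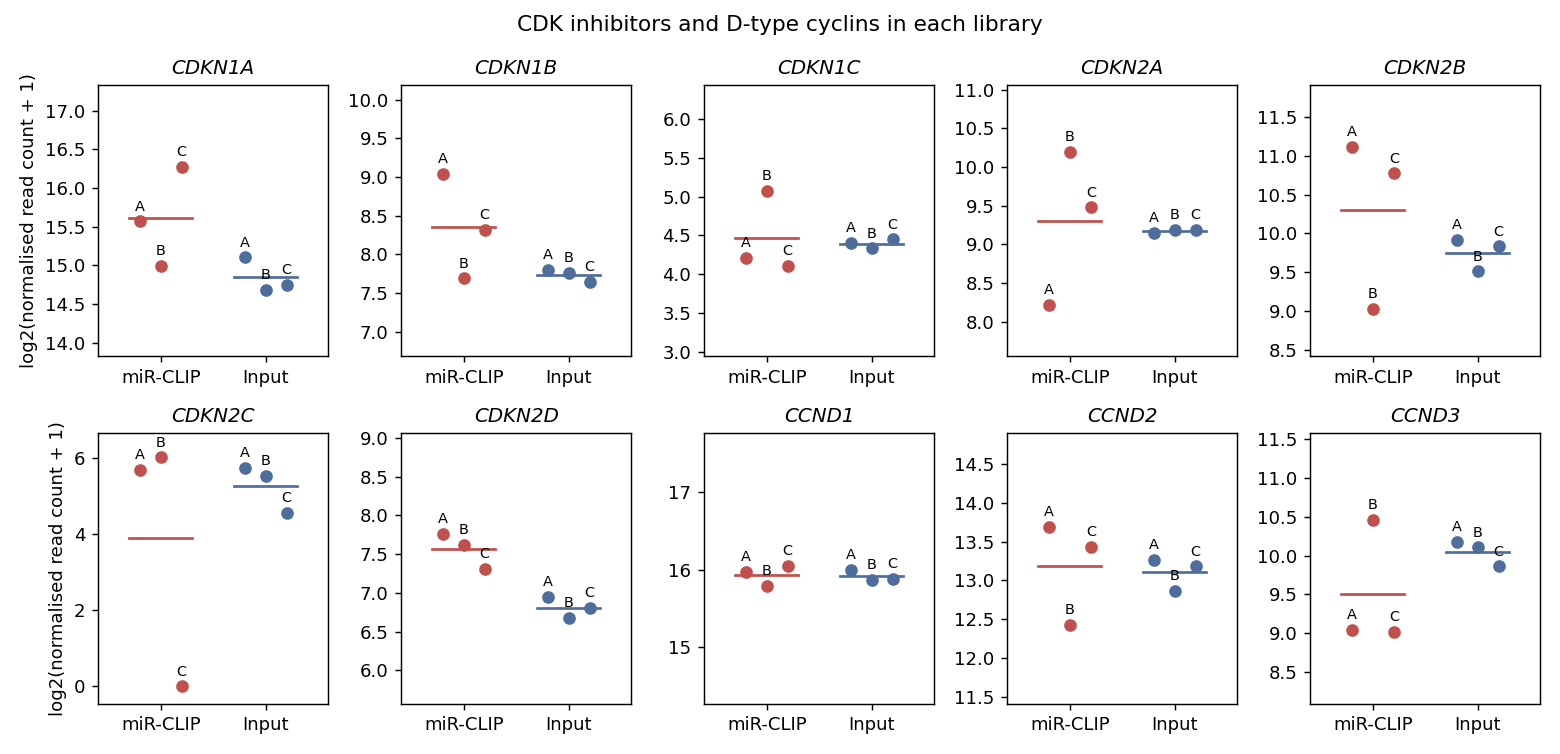
Each panel plots 1 gene, with log2(normalised read count + 1) on the vertical axis, 1 lettered point per library and a bar at the mean of the 3 libraries, miR-CLIP on the left and Input on the right. The miR-CLIP points lie apart from the Input points only for CDKN2D, and the 3 libraries of CCND1 sit close together in both groups.

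CDKN1A, or p21, an inhibitor of cyclin-CDK2 complexes, had the highest level per kb of the 7 inhibitors in either group. It had 48584, 32698 and 79314 normalised counts in the miR-CLIP libraries, against 35238, 26404 and 27618 in the Input libraries. All 3 miR-CLIP libraries stood above the Input mean, but the groups overlapped because miR-CLIP B was below Input A. The averages were 53532 ± 23699 in miR-CLIP and 29753.5 ± 4788 in Input (SD, n = 3 each), and the log2 difference was 0.76 ± 0.40 (SE; limma adjusted p = 0.611). Without miR-CLIP B it was 1.07 ± 0.29 with a limma adjusted p of 0.0281, and over all alternatives the adjusted p ran from 0.00986 to 0.884. The authors' deposited table gives CDKN1A a fold of 1.80, miR-CLIP over Input, with a p of 0.0583 and an adjusted p of 1. CDKN1A (ENSG00000124762.13) lies at chromosome 6, 36676460 to 36687339 on the plus strand (GRCh38, as all coordinates here).

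CDKN1B encodes p27, which restrains CDK2 in resting cells. It had 525, 206 and 319 normalised counts in the miR-CLIP libraries, against 222, 215 and 199 in the Input libraries. Libraries A and C stood above every Input library and B among them. The log2 difference was 0.62 ± 0.38 (limma adjusted p = 0.611), and without miR-CLIP B it was 0.95 ± 0.26 (limma adjusted p = 0.0315), with a range of 0.0184 to 0.884 over all alternatives. CDKN1B (ENSG00000111276.10) lies at chromosome 12, 12715058 to 12722371 on the plus strand.

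CDKN1C encodes p57, an imprinted inhibitor expressed from the maternal allele. It was close to the limit of counting, with 17, 33 and 13 reads in the miR-CLIP libraries and 33, 23 and 24 in the Input libraries. These correspond to 17.6, 32.8 and 16.3 normalised read counts in miR-CLIP and 20.2, 19.1 and 20.8 in Input. miR-CLIP B was the highest of the 6 libraries and A and C the lowest. The log2 difference was 0.07 ± 0.53 (95% interval -1.13 to 1.27; limma adjusted p = 0.962), and without miR-CLIP B it was -0.23 ± 0.51 (limma adjusted p = 0.765). The first interval holds both a 2-fold rise and a 2-fold fall of CDKN1C. The position of CDKN1C (ENSG00000129757.12) in the table is chromosome 11, 2883213 to 2885881, from an annotation version other than that of GENCODE release 29.

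CDKN2A and CDKN2B are neighbours on chromosome 9 and encode p16 and p15, the INK4 inhibitors most tied to senescence. CDKN2A (ENSG00000147889.17, 21967753 to 21995301, minus strand) also encodes ARF from another first exon, and the gene-level value does not separate the products. CDKN2A had 297, 1174 and 711 normalised counts in the miR-CLIP libraries, against 568, 584 and 581 in the Input libraries. The averages were 727 ± 438 in miR-CLIP and 578 ± 8.64 in Input (SD, n = 3 each). Input libraries were nearly equal, while miR-CLIP A lay below all of them and B and C above all of them. The log2 difference was 0.12 ± 0.46 (limma adjusted p = 0.926), and without miR-CLIP B it was -0.33 ± 0.33 (limma adjusted p = 0.499). Its sign thus turned on that library, and over all alternatives the adjusted p ran from 0.0737 to 0.993.

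CDKN2B (ENSG00000147883.10, 22002903 to 22009363, minus strand) had 2212, 519 and 1750 normalised counts in the miR-CLIP libraries, against 963, 728 and 910 in the Input libraries. Libraries A and C were above every Input library and B was below every one. With all libraries it differed by 0.55 ± 0.50 on the log2 scale (limma adjusted p = 0.666). Without miR-CLIP B it was 1.19 ± 0.20 (limma adjusted p = 0.00465), and over all alternatives the adjusted p ran from 0.00282 to 0.941. Of the reads of the 4 INK4 genes, CDKN2A held 10.7%, 60.1% and 27.2% in the miR-CLIP libraries and 33.3%, 40.0% and 35.8% in the Input libraries. Per kb of transcript its share of the 4 levels was 24.0%, 75.8% and 49.8% in miR-CLIP and 55.8%, 62.5% and 58.7% in Input, so the longer CDKN2B led in reads and CDKN2A in level per kb in every Input library. The ratio of CDKN2B to CDKN2A was 7.44, 0.442 and 2.46 in the miR-CLIP libraries, against 1.70, 1.25 and 1.57 in the Input libraries. A two-sided exact permutation test gave p = 0.7 (n = 3 each, where the smallest possible p is 0.1). It was 1 of 6 ratios between these genes that were computed, and its Benjamini-Hochberg adjusted p over them was 0.8 (exact permutation test).

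**Figure D2:**
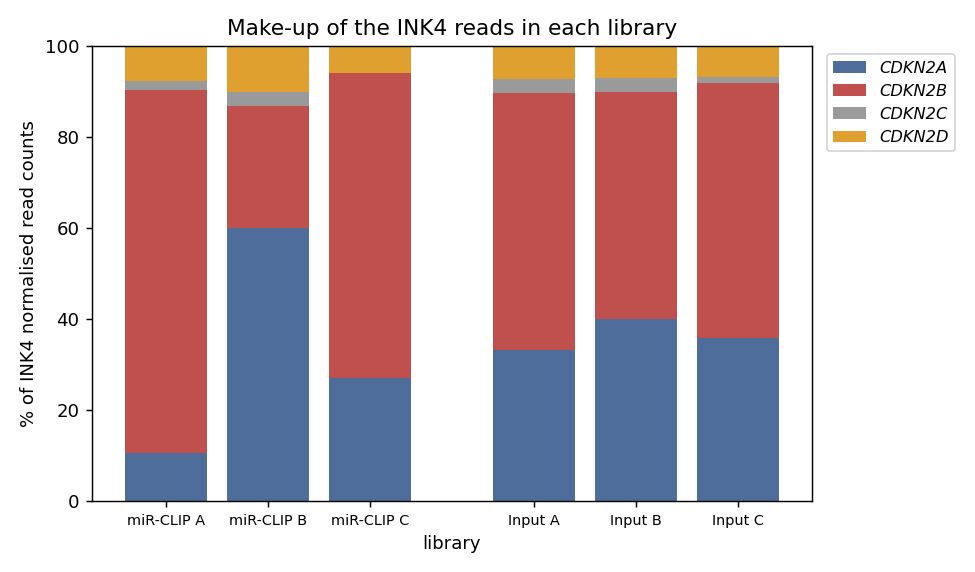
Stacked bars give each INK4 gene's percentage of the normalised read counts of the 4 genes in each library, the 3 miR-CLIP libraries on the left and the 3 Input libraries on the right. The CDKN2A share spans 10.7% to 60.1% in miR-CLIP and 33.3% to 40.0% in Input.

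CDKN2C and CDKN2D encode p18 and p19, the remaining INK4 inhibitors. CDKN2C (ENSG00000123080.10, chromosome 1, 50960745 to 50974633, plus strand) had 50.6, 63.5 and 0 normalised counts in the miR-CLIP libraries, against 52.7, 44.9 and 22.6 in the Input libraries. Library C was the lowest of its group in both, and its miR-CLIP count of 0 reads allows up to 3 reads by counting error alone. The log2 difference of -1.37 ± 1.43 (limma adjusted p = 0.705) rests on that 0 and on the pseudocount, and without miR-CLIP C it was 0.58. Without miR-CLIP B it was -2.43 ± 1.42 (limma adjusted p = 0.236). DESeq2 on the recovered reads gave CDKN2C a log2 difference of -0.08 ± 1.02 (adjusted p = 0.994).

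CDKN2D was the only one of the 10 genes whose groups did not overlap. It had 216, 196 and 158 normalised counts in the miR-CLIP libraries, against 122, 101 and 111 in the Input libraries. All 3 miR-CLIP libraries were thus higher, including the library that lay nearest to Input, and over all tested genes 5.64% were higher and 7.34% lower in miR-CLIP without overlap. The averages were 190 ± 29.6 in miR-CLIP and 112 ± 10.5 in Input (SD, n = 3 each), a log2 difference of 0.75 ± 0.33. It did not pass the correction (limma adjusted p = 0.611, unadjusted p = 0.0486), nor without miR-CLIP B, where it was 0.72 ± 0.29 (limma adjusted p = 0.0940). The authors' deposited table gives CDKN2D a fold of 1.70, miR-CLIP over Input, with a p of 0.0168 and an adjusted p of 1. The reads behind it numbered 209, 197 and 126 in the miR-CLIP libraries and 200, 122 and 128 in the Input libraries. CDKN2D (ENSG00000129355.6) lies at chromosome 19, 10566462 to 10569059 on the minus strand.

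Among the D-type cyclins, which partner CDK4 and CDK6, CCND1 had the highest level per kb and the smallest spread. CCND1 (ENSG00000110092.3, chromosome 11, 69641087 to 69654474, plus strand) had 63934, 56465 and 67858 normalised counts in the miR-CLIP libraries, against 65276, 59689 and 60337 in the Input libraries. The groups overlapped completely, and the averages were 62752 ± 5788 in miR-CLIP and 61767 ± 3056 in Input (SD, n = 3 each). The log2 difference was 0.02 ± 0.33, with a 95% interval of -0.72 to 0.76 and a limma adjusted p of 0.985, and its sign turned under TMM scaling (-0.0070), edgeR (-0.0034) and length-bin correction (-0.055). Without miR-CLIP B it was 0.094 ± 0.25 (limma adjusted p = 0.808). CCND1 made up 82.3%, 89.1% and 85.4% of D-type cyclin reads in the miR-CLIP libraries and 85.6%, 87.4% and 85.5% in the Input libraries. A two-sided exact permutation test of the shares gave p = 0.8 (n = 3 each).

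CCND2 (ENSG00000118971.7, chromosome 12, 4273772 to 4305350, plus strand) had 13179, 5519 and 11066 normalised counts in the miR-CLIP libraries, against 9830, 7479 and 9283 in the Input libraries. Library B was below every Input library, and A and C were above every one. The log2 difference was 0.08 ± 0.37 with all libraries (limma adjusted p = 0.942) and 0.46 ± 0.20 without miR-CLIP B (limma adjusted p = 0.127), and over all alternatives the adjusted p ran from 0.127 to 0.992.

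CCND3 (ENSG00000112576.12, chromosome 6, 41934933 to 42050357, minus strand) showed the mirror image. It had 526, 1406 and 516 normalised counts in the miR-CLIP libraries, against 1155, 1100 and 927 in the Input libraries. Libraries A and C were below every Input library and B was above every one. On the log2 scale it differed by -0.54 ± 0.40 (limma adjusted p = 0.625). Without miR-CLIP B it was -1.02 ± 0.18 (limma adjusted p = 0.00565), and over all alternatives the adjusted p ran from 0.00312 to 0.907.

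**Figure D3:**
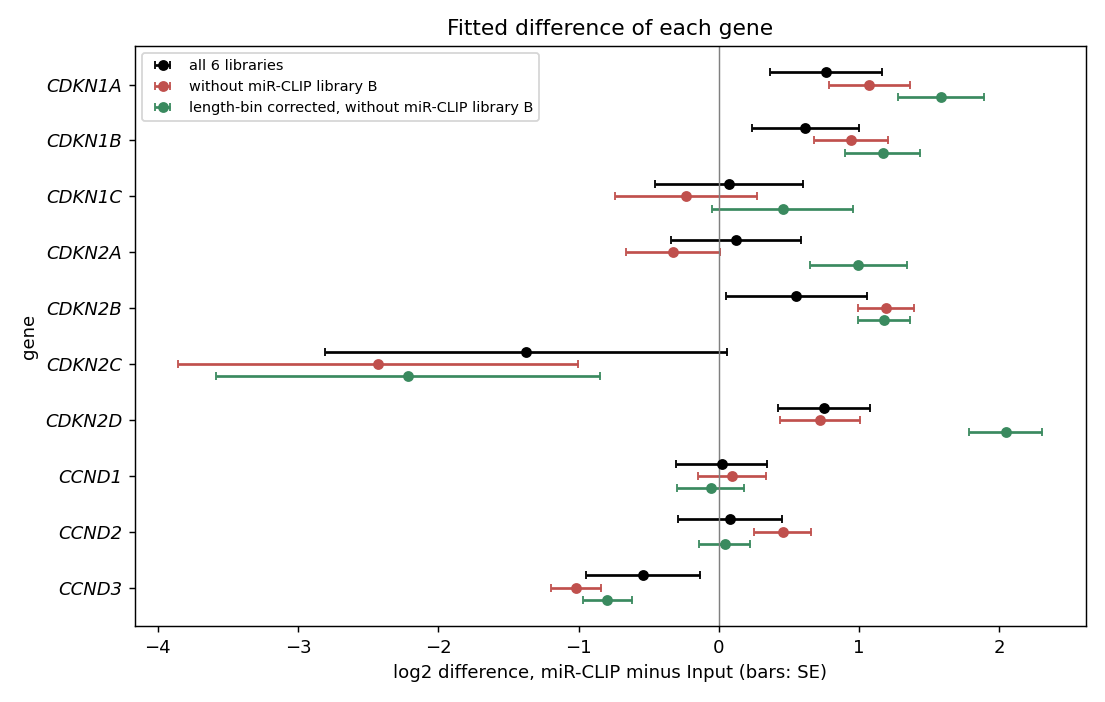
Points give the fitted log2 difference, miR-CLIP minus Input, of each gene with bars of 1 SE, for all 6 libraries (black), without miR-CLIP library B (red), and without it after correction by transcript length bin (green). CCND1 stays near 0 in each fit, while CDKN2D moves from 0.72 without library B to 2.05 once the medians of its length bin are subtracted as well. CDKN2D lies near the upper edge of that bin.

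The place of miR-CLIP B relative to A and C recurred across the set. In 6 of 10 genes (CDKN1B, CDKN1C, CDKN2B, CCND1, CCND2 and CCND3) B lay on the other side of the Input mean from both A and C, as it did for 44.9% of all tested genes. CDKN1A and CDKN2D were above the Input mean in all 3 miR-CLIP libraries. CDKN2A and CDKN2C had A and C on different sides.

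Transcript length moved with this contrast of miR-CLIP B to A and C. The 10 genes differ in length, from 1283 nucleotides in the longest coding transcript of CDKN2A to 6480 in that of CCND2. Tested protein-coding genes were put in 10 bins by length. In the shortest bin, 213 to 1445 nucleotides, the median gene lay at a log2 difference from the Input mean of -1.26, 0.71 and -1.37 in the miR-CLIP libraries, and in the longest, from 7664 nucleotides up, at 0.73, -0.31 and 0.46. CDKN2A and CDKN2D fall in the shortest bin, CDKN2D at 1422 nucleotides near its upper edge. The next bin, 1446 to 1953 nucleotides, had medians of -0.69, 0.40 and -0.68 in the miR-CLIP libraries. CDKN2D had 0.95, 0.81 and 0.50 in the miR-CLIP libraries, above 95.6%, 59.0% and 90.5% of the other 634 genes of the shortest bin, most of them shorter than CDKN2D. Of those 634 genes, 29 (4.57%) were above the Input mean in all 3 libraries. CDKN2A had -0.96, 1.02 and 0.30, above 59.5%, 75.9% and 88.0% of that bin. CDKN1A, at 2267 nucleotides, had 0.72, 0.15 and 1.43, above 90.0%, 39.0% and 95.1% of the other 630 genes of its bin. Of those 630 genes, 77 (12.2%) were above the Input mean in all 3 miR-CLIP libraries. CDKN1B, at 2657 nucleotides, had 1.30, -0.04 and 0.59, above 94.8%, 30.3% and 80.1% of its bin.

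The longest transcripts among the cyclins had values near those of their bins in A and C. CCND1, at 4307 nucleotides, had 0.05, -0.13 and 0.14 in the miR-CLIP libraries where the bin had 0.22, -0.08 and 0.09. CCND2 had 0.58, -0.67 and 0.33 where the bin had 0.51, -0.25 and 0.32. CCND3, at 2394 nucleotides, had -1.01, 0.41 and -1.03 where the bin had -0.24, 0.17 and -0.20, and 21.0% and 23.2% of the bin lay below it in A and C. It lies near the lower edge of that bin, and the bin below, 1953 to 2382 nucleotides, had -0.44, 0.25 and -0.57. CDKN2B, at 3911 nucleotides, had 1.36, -0.73 and 1.02 where the bin had 0.12, -0.00063 and -0.08.

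After subtraction of the bin medians, 0 of the 10 genes passed with all 6 libraries, and CDKN2D had a log2 difference of 1.40 ± 0.52 (limma adjusted p = 0.538). With the same correction and miR-CLIP B left out, a combination chosen after seeing the data, 4 of 10 were called higher and 1 lower, where 12.1% of all genes were called higher and 9.81% lower. CDKN2D had 2.05 ± 0.26 in that fit (limma adjusted p = 0.00217), CDKN1A 1.58 ± 0.31 (0.00986), CDKN2B 1.18 ± 0.18 (0.00449) and CDKN1B 1.17 ± 0.27 (0.0184), and CCND3 had -0.79 ± 0.17 (limma adjusted p = 0.0151). Over all alternatives the adjusted p of CDKN2D ran from 0.00217 to 0.884. CDKN2A had 1.00 ± 0.35 with a limma adjusted p of 0.0737. The correction subtracts 1 median per bin and library, and CDKN2D and CCND3 lie near a bin edge. Their corrected values under other bin edges were not tested.

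**Figure D4:**
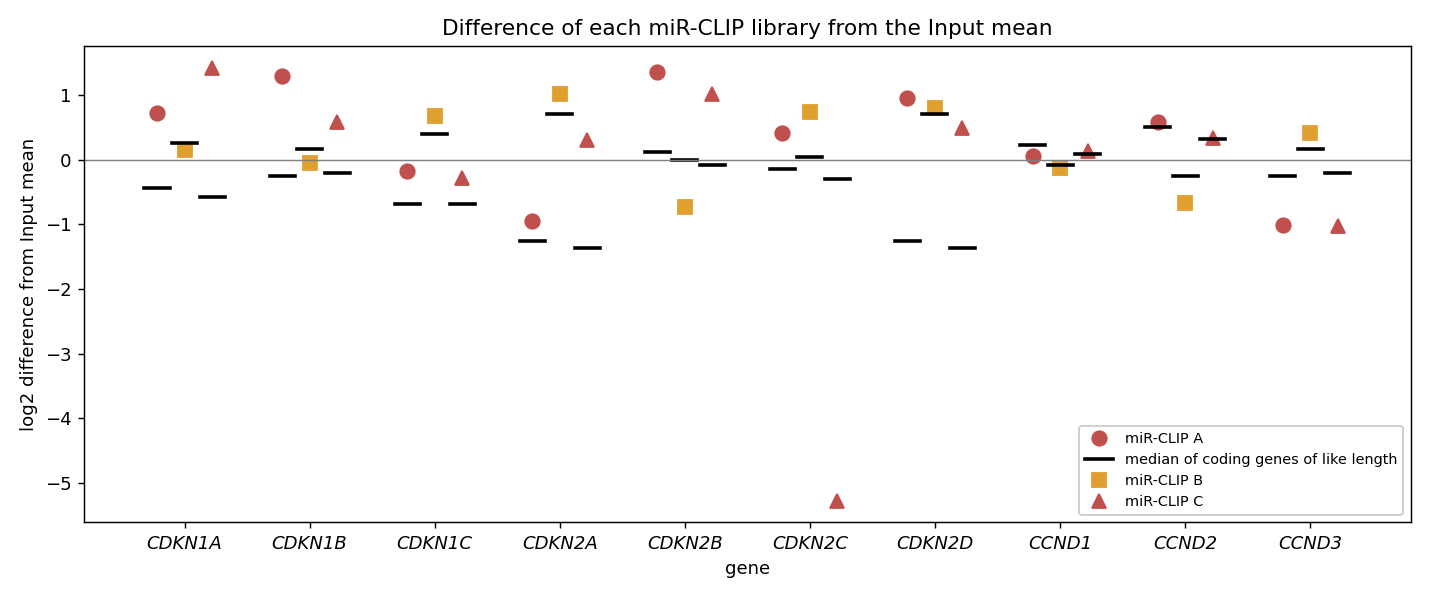
For each gene, symbols give the log2 difference of miR-CLIP libraries A, B and C from the Input mean, and black bars the median of tested protein-coding genes in the same bin of transcript length for the same library. CDKN2D lies 2.21 and 1.86 above its bin in A and C and 0.10 above in B, while CCND1 lies between -0.17 and 0.05 from its bin in the 3 libraries.

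Per kilobase of longest coding transcript, the 10 genes covered a wide range of levels. In miR-CLIP the order was led by CDKN1A at 23614 ± 10454 normalised read counts per kb and CCND1 at 14570 ± 1344, and in Input by CCND1 at 14341 ± 710 and CDKN1A at 13125 ± 2112 (SD, n = 3), with overlapping ranges between these neighbours in either group. By the Input level per kb they ranked 14th (CCND1) and 16th (CDKN1A) of 8475 tested genes with a length. CCND2 followed at 1531 ± 611 per kb in miR-CLIP and 1368 ± 190 in Input. In Input, CDKN2A at 450 ± 6.74 and CCND3 at 443 ± 49.6 per kb overlapped, CDKN2B came next at 222 ± 31.5, and CDKN1B at 79.8 ± 4.58 and CDKN2D at 78.5 ± 7.40 overlapped. CDKN2C at 13.8 ± 5.38 and CDKN1C at 10.4 ± 0.442 per kb overlapped at the bottom. In miR-CLIP, CCND2 overlapped CDKN2A, CDKN2A overlapped CDKN2B and CDKN2B overlapped CCND3, while CCND3 lay apart from CDKN2D. The libraries are bulk RNA, so the number of cells carrying a transcript and its amount per cell cannot be told apart in these levels.

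The balance of CCND1 to CDKN1A, which no scaling between libraries can alter, was 1.32, 1.73 and 0.856 in the miR-CLIP libraries, against 1.85, 2.26 and 2.18 in the Input libraries. All 3 miR-CLIP libraries were lower. The averages were 1.30 ± 0.436 in miR-CLIP and 2.10 ± 0.217 in Input (SD, n = 3 each). The two-sided exact permutation p was 0.1, the smallest that 3 libraries against 3 allow, and adjusted over the 6 ratios by Benjamini-Hochberg it was 0.6. CDKN1A is shorter than CCND1, and after length-bin correction with all 6 libraries the log2 differences were 1.02 ± 0.48 for CDKN1A and -0.055 ± 0.27 for CCND1, against 0.76 and 0.02 without it. By library, the corrected values were 1.16, -0.10 and 2.00 for CDKN1A in miR-CLIP and -0.17, -0.048 and 0.05 for CCND1. In miR-CLIP B CDKN1A was thus not above CCND1 after correction, and the lower balance held in A and C only.

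Other cell-cycle kinases, cyclins and CDC25 phosphatases, not all of them bound by the set, gave no call with all 6 libraries. Of a list of 15, 14 were tested, with 0 higher and 0 lower and a median log2 difference of -0.08, against -0.13 over all tested genes. Those with the smallest p were CCNH, the cyclin of the CDK-activating kinase, at -0.95 ± 0.44, its partner CDK7 at -0.85 ± 0.46, the mitotic kinase CDK1 at -1.26 ± 0.66 and the S-phase cyclin CCNE2 at -1.15 ± 0.64. CCNH had 177, 551 and 191 normalised counts in the miR-CLIP libraries, against 460, 530 and 554 in the Input libraries. CDK7 had 308, 854 and 238 in miR-CLIP and 704, 665 and 790 in Input. In both genes miR-CLIP A and C were below every Input library and B was not. Without miR-CLIP B, 1 of the 14 was called higher, CDK6 (0.69 ± 0.21), and 3 lower, CCNH (-1.48 ± 0.20), CDK1 (-1.82 ± 0.57) and CDK7 (-1.41 ± 0.20), in a fit that called 12.6% of all genes higher and 16.1% lower. CCNE2 had -1.65 ± 0.58 in that fit (limma adjusted p = 0.0667). The fit was not corrected for length, which was 11612 nucleotides for CDK6, 2391 for CCNH, 1948 for CDK1 and 1455 for CDK7. Medians of their length bins in miR-CLIP A and C were 0.73 and 0.46 for CDK6 and -0.24 and -0.20 for CCNH. For CDK1 and CDK7 they were -0.69 and -0.68. In this list CDC25B and CDC25C were higher in miR-CLIP without overlap, as for 5.64% of all tested genes. CDK6, one of the kinases inhibited by INK4 proteins, had 8420, 3211 and 11855 in the miR-CLIP libraries, against 6603, 5624 and 6350 in the Input libraries. The other, CDK4, had 1143, 2200 and 949 in miR-CLIP and 1129, 1415 and 958 in Input.

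Of the RB and E2F genes, 8 of 13 were tested, all of them E2F factors, with 0 called in either direction and a median of 0.08. E2F3, an activator of S-phase genes, had 3071, 1416 and 3888 normalised counts in the miR-CLIP libraries, against 1528, 1514 and 1562 in the Input libraries, a log2 difference of 0.74 ± 0.37. The repressor E2F7 had 0.55 ± 0.38, E2F6 0.47 ± 0.34 and E2F8, with 0 reads in miR-CLIP C, -0.99 ± 1.20. Without miR-CLIP B, 2 of the 8 were called higher, E2F3 (1.17 ± 0.17) and E2F7 (0.97 ± 0.17), and 0 lower, beside 12.6% and 16.1% of all genes. E2F6 had 0.71 ± 0.23 (limma adjusted p = 0.0512) and E2F8 had -1.58 ± 1.30 (limma adjusted p = 0.395) in that fit. The fit was not corrected for length, which was 4749 nucleotides for E2F3 and 5740 for E2F7. E2F5 was higher in miR-CLIP without overlap, as for 5.64% of all tested genes.

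Genes that control turnover of these inhibitors and cyclins included 14 tested of 17, with 0 called and a median of 0.23. AMBRA1, the substrate receptor that marks D-type cyclins for degradation, had 1334, 966 and 1380 normalised counts in the miR-CLIP libraries, against 862, 867 and 628 in the Input libraries. Its groups did not overlap, and neither did those of DDB1 in the same list. Over all tested genes, 5.64% were higher in miR-CLIP without overlap. The log2 difference of AMBRA1 was 0.64 ± 0.28 (limma adjusted p = 0.611). The CDK-binding protein CKS2 had 28.9, 346 and 32.5 in miR-CLIP and 343, 233 and 206 in Input, a log2 difference of -1.86 ± 0.86. FBXO31 had 0.50 ± 0.30 and the ubiquitin ligase scaffold CUL4A 0.72 ± 0.45. Leaving out miR-CLIP B, 3 of the 14 were called higher and 1 lower, beside 12.6% and 16.1% of all genes. The 3 were AMBRA1 (0.80 ± 0.20), FBXO31 (0.75 ± 0.18) and CUL4A (1.218 ± 0.265), and the 1 was CKS2 (-3.01 ± 0.33). Length, for which the fit was not corrected, was 5351 nucleotides for AMBRA1, 5934 for FBXO31, 5666 for CUL4A and 613 for CKS2.

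Regulators of the inhibitor genes, mainly chromatin and transcription factors, had 16 tested of 17, with 0 called and a median of 0.03. The Polycomb proteins CBX7, CBX2 and CBX8, of a class that silences CDKN2A in growing cells, had log2 differences of 1.28 ± 0.54, 1.24 ± 0.57 and 0.81 ± 0.37, and BMI1, another, had -0.71 ± 0.37. CBX8 had 95.0, 100 and 104 normalised counts in the miR-CLIP libraries, against 65.5, 54.1 and 50.3 in the Input libraries. CBX8 and, in the same list, ETS2 were higher in miR-CLIP without overlap, as for 5.64% of all tested genes. CBX7 had 171, 83.4 and 330 in miR-CLIP, against 81.5, 81.5 and 48.6 in Input. Leaving out miR-CLIP B, 5 of the 16 were called higher and 0 lower, beside 12.6% and 16.1% of all genes. The 5 were CBX7 (1.78 ± 0.40), CBX2 (1.77 ± 0.41), KDM6B (1.07 ± 0.25), ETS2 (0.67 ± 0.21) and FOXO3 (0.58 ± 0.16). In that fit CBX8 had 0.81 ± 0.34 and BMI1 -0.72 ± 0.35. Length, again not corrected for, was 4081 nucleotides for CBX7, 4644 for CBX2, 6713 for KDM6B, 3936 for ETS2 and 7341 for FOXO3.

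Of the 5 non-coding neighbours of the set in the table, all but KCNQ1OT1 had few reads. CDKN2B-AS1, which overlaps 7.88% of the exon bases of CDKN2A on the opposite strand, had 0, 1.99 and 0 normalised counts in the miR-CLIP libraries, against 1.84, 3.33 and 0.867 in the Input libraries, or a few reads. CDKN2A-AS1 had no read in any library. CCND2-AS1 had 8.26, 8.94 and 8.75 in miR-CLIP and 15.9, 9.15 and 13.0 in Input. It was lower in miR-CLIP without overlap, as for 7.34% of all tested genes. CCND2-AS2 had at most 1.03 in any library. KCNQ1OT1, the imprinted transcript of the region that holds CDKN1C, had 102, 164 and 26.3 in the miR-CLIP libraries, against 33.7, 9.15 and 31.2 in the Input libraries, a log2 difference of 1.78 ± 0.78 (limma adjusted p = 0.611) with overlapping groups. Without miR-CLIP B, KCNQ1OT1 had 1.24 ± 0.77 (limma adjusted p = 0.262). Whether the authors counted by strand is not given, so sense and antisense reads cannot be told apart where these genes overlap.

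Some reads of the set could belong to more than 1 gene. CDKN2A and CDKN2B are paralogs, and 31 of the 1234 stretches of 50 bases in the longest coding transcript of CDKN2A (2.51%) also occurred in CDKN2B transcripts, as did 0.803% of those of CDKN2B in CDKN2A. No such stretch was shared among the CIP/KIP genes or among the D-type cyclins. CCND1 overlaps LTO1 over 10.3% of its exon bases on the opposite strand, and CCND2 overlaps AC008012.1 over 13.8% on the same strand. How such reads were assigned is not given.

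Genes whose levels moved most like those of CCND1 over the 6 libraries were COL9A3 (Pearson r = 0.996), LIX1L (0.991) and AC000123.2 (0.979). LIX1L had 1786, 1223 and 2229 normalised counts in the miR-CLIP libraries, against 1854, 1510 and 1478 in the Input libraries, while COL9A3 had 13.8 or fewer in every library. For CDKN1A they were ENO4 (0.992), ANGEL1 (0.992) and ABHD5 (0.989). ABHD5, an activator of triglyceride lipolysis, had 1334, 755 and 1925 in miR-CLIP and 832, 676 and 664 in Input. Each was picked as the closest of 8496 genes over 6 libraries that also differ in depth, so these are descriptions.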

How the data were processed

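Per the labels' protocols, ribosomal RNA was depleted and libraries were built with a KAPA RiboErase kit. The authors deposited 1 signal value per gene and library. All values (100% per library) were whole multiples of the smallest value above 0 within 1e-06 of a read, so whole reads could be recovered. The deposited table also holds, per the file headers, the authors' fold change on a linear scale (a ratio), with a raw and an adjusted p-value. GRCh38, STAR 2.5.1b, Trimmomatic 0.35 and DESeq2 1.22.2 are named, with no role or order, in the submitters' processing notes. The sources used here do not give the counting program or its strand setting. Several pathway genes, among them RB1 and SKP2, were not analysed here, and shares of all genes refer to the genes analysed.

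Genes reaching 1 normalised count in 3 or more libraries were tested by limma-trend (R 4.3.3, limma 3.58.1), two-sided, on log2(value + 1). edgeR 4.0.16 and DESeq2 1.42.0 were run on recovered reads. The code was tested on simulated data. Column letters match no replicate number in the labels, so columns were assigned to groups only. Transcripts came from GENCODE release 29. The genes and lists were chosen with earlier results of these data known. Named list genes are the 4 with the smallest p, all neighbours, and the 3 genes most correlated with CCND1 and CDKN1A. Genes listed as called without miR-CLIP B, the further genes listed as without overlap, and CDK4, were named after their values were seen.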

Additional observations from a re-analysis of the deposited data

How the results depend on the processing

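Settings other than leaving out 1 library alone gave 110 values of the 10 genes. They include edgeR and length-bin correction each combined with leaving out miR-CLIP B. Of the 110, 94 kept their direction and side of the threshold, 9 passed it and 7 changed sign. All 9 that passed left out miR-CLIP B. The sign changes were CCND1 with edgeR (-0.0034), TMM scaling (-0.0070), length-bin correction (-0.055) and that correction without miR-CLIP B (-0.059), CCND2 with length-bin correction (-0.11), and CDKN1C (-0.33) and CDKN2A (-0.28) with edgeR and miR-CLIP B left out. Leaving out 1 library at a time, log2 differences ran from -0.23 to 0.25 for CDKN1C, -0.33 to 0.66 for CDKN2A, -2.43 to 0.58 for CDKN2C, -0.039 to 0.094 for CCND1 and -0.17 to 0.46 for CCND2. The number of genes called ran from 0 to 1069 higher and from 0 to 1373 lower, and of the 10 from 0 to 3 higher and from 0 to 1 lower, where only the fit without miR-CLIP B gave calls. That library decides these counts, and the cause was not tested. The median of RB and E2F genes ran from 0.0036 to 0.32, and that of turnover genes from 0.0087 to 0.30. DESeq2 called 2 genes higher, ATP5L and HOMER3 (adjusted p = 0.0397 for both). Without miR-CLIP B, edgeR called 999 genes higher and 1345 lower, and 3 and 1 of the 10. Length-bin correction without that library called 1024 and 831, and 4 and 1 of the 10. By the 6mer in place of the 7mer-m8 site, 2 of 10 genes held a match. A replicate block by column letter, added after seeing the data, called 0 genes higher and 0 lower. Deviations of libraries sharing a letter correlated at 0.14 (A), 0.11 (B) and 0.086 (C), and neither the labels nor these values settle whether libraries sharing a letter are paired. Intervals from counts cover counting error only, and CDKN1C and CDKN2C rest on under 100 reads per library.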
